A study of Oryctolagus cuniculus with 6 samples.

Results

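Relative levels of 5 targets, VWF, Col I, SPP1, IGF1 and SOX9, were given in a deposited table with 3 Blank and 3 LA@PA-TA@C values each, 30 values in all. The members are the 5 names that the table holds, and no other group stands in it. The series sequenced RNA from trachea of wild type rabbits, collected on day 14, in 2 groups of 3 libraries. In one group the tracheal epithelium was deficient and nothing was added, and in the other an epithelial injury was combined with LA@PA-TA@C, a Janus hydrogel, that is, one whose faces differ. A further deposited table names these faces an LA@PA side and a TA@C side. The labels give neither age nor sex of the animals. The count table of the series covered 16815 gene identifiers, against which the 5 targets are a small panel.

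The table does not say whether its values are RNA or protein levels, in which tissue, species or day they were measured, or which reference they were divided by. The columns carry the group names alone, so the values cannot be tied to single sequenced tracheae, and p-values measure only the spread between these columns, which may be technical. Each target's Blank values averaged 1, within 3.33e-07, so a level is a multiple of that target's own Blank mean. Levels of different targets therefore share no absolute scale. Only their ratio of hydrogel to Blank can be set side by side. The table separates no cell types, so fewer cells of a type and less product per cell cannot be told apart.

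As background, the 5 targets belong to the processes that rebuild tissue under a wounded epithelium. Von Willebrand factor (VWF) is made by endothelial cells and tethers platelets to exposed matrix, which makes it a common marker of vessels. Collagen I is the main fibrillar collagen of connective tissue and scar. Osteopontin, the product of SPP1, is a secreted phosphoprotein that binds integrins and CD44 and is made by macrophages and by cells of mineralizing tissue. Insulin-like growth factor 1 (IGF1) is a growth factor that acts through its receptor and the PI3K-Akt pathway, and SOX9 is the transcription factor required for cartilage formation, active also in airway progenitor cells. In the RefSeq gene table of the rabbit assembly mOryCun1.1, each of VWF, COL1A1, COL1A2, SPP1, IGF1 and SOX9 has 1 protein-coding entry. The label Col I does not say which of the COL1A1 and COL1A2 chains was measured. IGF1 has 11 transcript models in that table, against 2 for SPP1 and 1 for each of the others, and which of them the IGF1 values cover is not stated.

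In all 5 targets, the 3 hydrogel values lay below the 3 Blank values. The mean hydrogel level was 17.8% of Blank for VWF, 31.7% for SOX9, 34.1% for SPP1, 41.1% for Col I and 50.6% for IGF1. As a reference, 12.8% of 13226 RNA-seq genes had all hydrogel libraries below all Blank libraries. With 3 values against 3, an exact two-sided permutation test of the means cannot go below p = 0.1, and it gave p = 0.1 for each target, before and after Benjamini-Hochberg adjustment over the 5 targets. That test could therefore not pass a threshold of 0.05 for any target. The differences are described by their size and spread, and by intervals that assume normal errors.

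**Figure D1:**
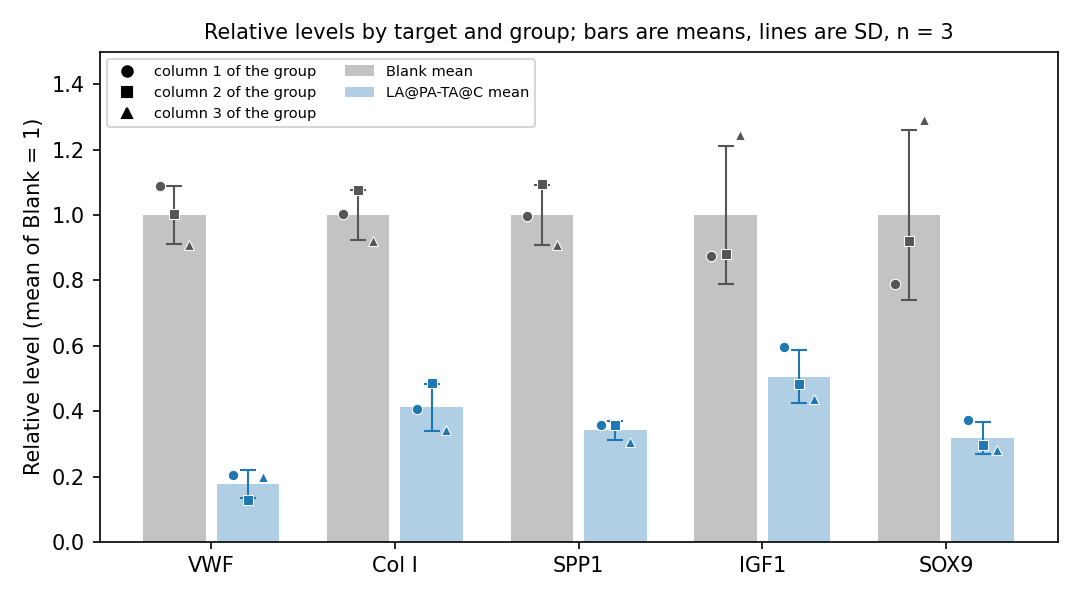
Relative level (vertical axis, mean of Blank = 1) of the 5 targets in Blank (grey) and LA@PA-TA@C (blue); bars are means, lines are SD (n = 3), and symbols mark the column of the table within its group. All hydrogel points lie below all Blank points of the same target, and the widest Blank spread is that of SOX9 (SD 0.260).

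The vessel marker VWF had the lowest hydrogel share of the 5 targets. Its Blank values were 1.09, 1.00 and 0.908. Its hydrogel values were 0.205, 0.129 and 0.199. The groups were far apart, with 0.703 between the lowest Blank and the highest hydrogel value, and hydrogel column 2 lay below the other two. The means were 1.00 ± 0.0899 in Blank and 0.178 ± 0.0423 in hydrogel (SD, n = 3), a 5.63-fold lower mean in hydrogel and a log2 ratio of -2.49. The coefficient of variation within hydrogel, 23.8%, was the widest of the 5 targets, although the SD itself was small.

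The matrix components Col I and SPP1 had Blank values about as tight as those of VWF. Col I stood at 1.00, 1.08 and 0.921 in Blank and at 0.405, 0.486 and 0.342 in hydrogel. Its groups were separated by 0.435, and its means were 1.00 ± 0.0775 and 0.411 ± 0.0726 (SD, n = 3), a log2 ratio of -1.28. SPP1 stood at 0.996, 1.09 and 0.909 in Blank and at 0.359, 0.356 and 0.307 in hydrogel. The hydrogel values of SPP1 were the most alike of all targets, with means of 1.00 ± 0.0929 and 0.341 ± 0.0294 (SD, n = 3) and a log2 ratio of -1.55. Its groups were 0.550 apart, the second widest gap after VWF.

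The growth factor IGF1 and the cartilage regulator SOX9 had the widest Blank values. IGF1 stood at 0.875, 0.881 and 1.24 in Blank and at 0.597, 0.483 and 0.438 in hydrogel. Blank column 3 was far above the other two, and the gap between the groups, 0.278, was the smallest of the 5 targets. The means of IGF1 were 1.00 ± 0.211 and 0.506 ± 0.0820 (SD, n = 3), a 1.98-fold lower mean in hydrogel and a log2 ratio of -0.98. SOX9 stood at 0.790, 0.919 and 1.29 in Blank and at 0.372, 0.296 and 0.282 in hydrogel. The groups of SOX9 were 0.418 apart, and Blank column 3 was again the highest. The means of SOX9 were 1.00 ± 0.260 and 0.317 ± 0.0487 (SD, n = 3), a log2 ratio of -1.66. Without Blank column 3, the hydrogel share would be 57.6% for IGF1 and 37.1% for SOX9. Leaving out a value cannot make separate groups overlap.

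Blank column 3 was the lowest for 3 targets, VWF, Col I and SPP1, and the highest for 2, IGF1 and SOX9. In hydrogel, column 1 was the highest for 4 of the 5 targets and column 3 was the lowest for 4, with exceptions in Col I for the highest and VWF for the lowest. The table does not say whether a column holds the same animal or culture for every target, so these orders are only a description.

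The authors' deposited table also gives, for each target, the difference Blank minus hydrogel with a 95% interval. In the authors' deposited table the lowest bound is that of IGF1, with a difference of 0.4943 and an interval from 0.2089 to 0.7797. All 5 intervals have half-widths near 0.285. From the values themselves, an error pooled over all 10 combinations of target and group (SD 0.123, 20 degrees of freedom) with a Šídák adjustment for 5 comparisons gave all 10 bounds of the authors' deposited table within 0.001. The spread that this pools was unequal. Pooled over targets, the SD was 0.164 in Blank and 0.0583 in hydrogel. Within a target, the SD pooled over its own 2 groups was 0.0689 for SPP1, 0.0703 for VWF and 0.0751 for Col I, all below the common 0.123, and 0.160 for IGF1 and 0.187 for SOX9, both above it. With the error of each target alone (4 degrees of freedom) and the same Šídák adjustment, the interval of the difference ran from 0.560 to 1.09 for VWF, from 0.308 to 0.869 for Col I and from 0.402 to 0.917 for SPP1, all above 0. For IGF1 it ran from -0.105 to 1.09 and for SOX9 from -0.0153 to 1.38, so that both included 0. Without adjustment for the 5 targets, the interval ran from 0.131 to 0.858 for IGF1 and from 0.260 to 1.11 for SOX9. The Šídák intervals from the target alone differ from the pooled ones in the SD and in the degrees of freedom. The lower degrees of freedom raise the multiplier of the standard error from 2.84 to 4.58. With the SD of the target alone but the multiplier of 2.84, the lower bound was 0.123 for IGF1 and 0.250 for SOX9, so the wider spread by itself did not bring 0 into the interval. Intervals for VWF, Col I and SPP1 lay above 0 in each of these forms. These intervals assume normal errors, which 3 values per group cannot check.

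**Figure D2:**
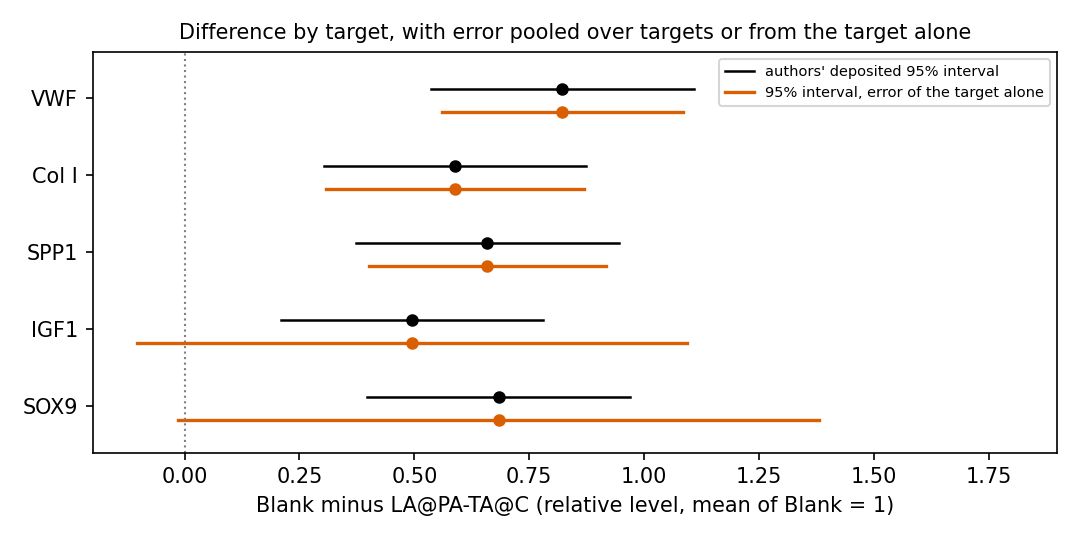
Difference Blank minus LA@PA-TA@C on the relative scale (horizontal axis, mean of Blank = 1) for the 5 targets; black lines are the authors' deposited 95% intervals and orange lines are the Šídák intervals from the spread of the target alone. The black lines are equally long and lie above 0, whereas the orange lines of IGF1 (-0.105 to 1.09) and SOX9 (-0.0153 to 1.38) cross 0.

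The targets were then compared with each other by their hydrogel level as a share of Blank, in all 10 pairs. In 6 pairs the hydrogel values did not overlap, and 4 of these were the pairs with VWF. The other 2 set IGF1 apart from SPP1 and from SOX9. Each of these 6 pairs gave p = 0.1 in an exact two-sided permutation test, the smallest p that 3 values against 3 allow, and 0.167 after Benjamini-Hochberg adjustment over the 10 pairs. For all pairs, the test treats the values of 2 targets as independent. They would not be if a column holds the same specimen for both, which the table does not say. In ascending order the shares ran VWF, SOX9, SPP1, Col I, IGF1. Neighbours beyond VWF overlapped: SOX9 and SPP1 differed by 2.41 percentage points (exact permutation p = 0.6), Col I and SPP1 by 7.04 (exact permutation p = 0.3), and Col I and IGF1 by -9.46 (exact permutation p = 0.3). With 3 values each, these p-values do not show that the neighbours are alike.

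That comparison takes the Blank mean as fixed. Dividing every hydrogel value by every Blank value gives 9 ratios per target, which carry the spread of both groups. These ran from 11.9% to 22.6% for VWF and from 21.8% to 47.1% for SOX9, so the pair touched at its edges. They ran from 28.0% to 39.5% for SPP1, from 31.8% to 52.8% for Col I and from 35.2% to 68.2% for IGF1. VWF remained apart from Col I, SPP1 and IGF1 on this scale, and the other 7 of the 10 pairs overlapped. No ratio of any target reached 100%, which follows from the groups not overlapping.

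**Figure D3:**
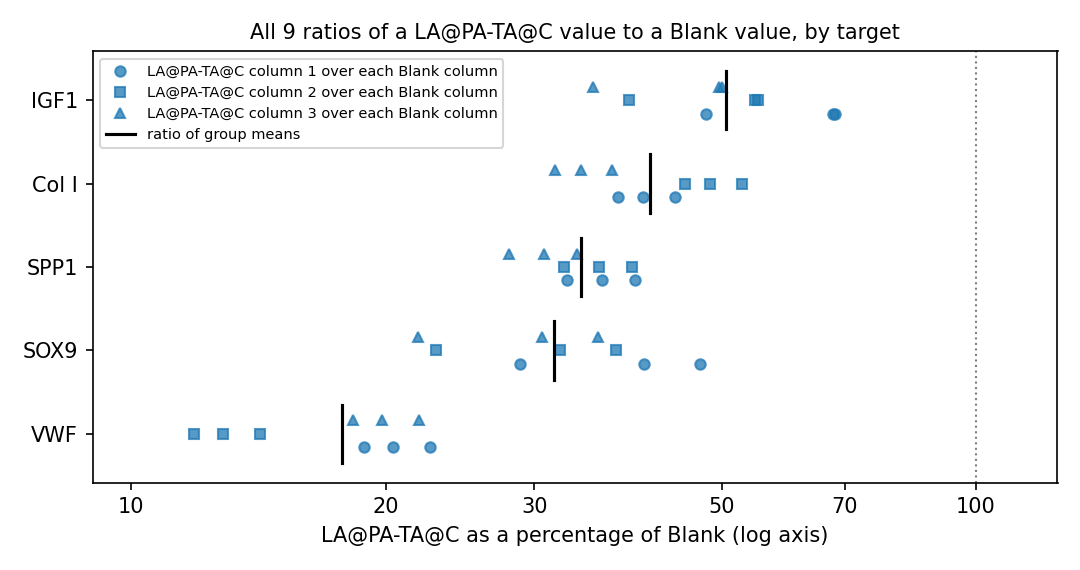
All 9 ratios of a LA@PA-TA@C value to a Blank value for each target, in percent on a log axis; symbols mark the hydrogel column and black bars the ratio of group means. VWF lies lowest, from 11.9% to 22.6%, and IGF1 highest, from 35.2% to 68.2%.

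The RNA-seq libraries show how common ratios of this size were among RNAs of the injured trachea. Whether the relative levels are a like measure is not known. The RNA-seq genes are known by Ensembl rabbit identifiers, which no table used here pairs with symbols. The RNA-seq values of the 5 targets themselves were therefore not analysed here. Library totals ranged from 16827419 to 23390531 counts, and 13226 genes with a mean of at least 1 CPM (counts scaled to library size) were kept. Over these genes the median ratio of mean hydrogel to mean Blank CPM was 101%. A ratio at or below the 50.6% of IGF1 was found for 12.1% of genes, one at or below the 41.1% of Col I for 8.03%, at or below the 34.1% of SPP1 for 5.74%, at or below the 31.7% of SOX9 for 4.90% and at or below the 17.8% of VWF for 2.17%. Both a ratio at or below that of IGF1 and no overlap between groups were found for 6.44% of genes. The share of genes without overlap, 12.8% in the lower direction, was 15.4% to 20.9% when 1 library was left out. The highest shares were those without Blank replicate 1 (20.9%) and without hydrogel replicate 1 (20.2%). Leaving out a library cannot create an overlap. Apart from changes in which genes pass the filter, these shares could therefore only stay or rise. In the higher direction, 18.9% of genes had no overlap. The authors chose the panel and its assay is not stated, so the 5 of 5 cannot be read as a rate against these shares. Nor can the percentages be read as the rank of a target among these genes.

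**Figure D4:**
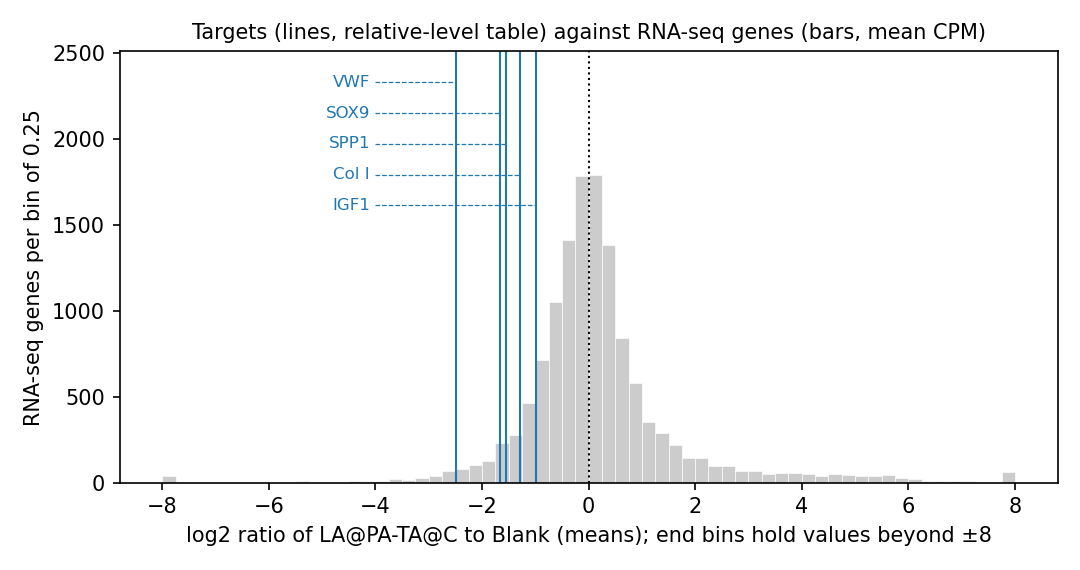
Number of RNA-seq genes (vertical axis) by log2 ratio of mean hydrogel to mean Blank CPM (horizontal axis, bins of 0.25, end bins holding values beyond 8 in either direction), with blue lines at the log2 ratios of the 5 targets from the relative-level table. The 5 lines lie between -2.49 (VWF) and -0.98 (IGF1), on the lower flank of the gene distribution. The assay behind the lines is not stated and may differ from that of the bars.

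The authors' deposited enrichment tables list genes under terms that cover the known roles of the targets. These listed genes had median ratios between 20.8% and 44.9% per term, inside the range of the targets. They are only a part of each term's background genes: 7 of 24 for collagen fibril organization, 16 of 61 for ECM-receptor interaction and 13 of 91 for angiogenesis. For cartilage condensation they are 4 of 11, and for the PI3K-Akt signaling pathway 27 of 227. The other genes of the terms were not examined. The authors took the listed genes from a cluster that differed between these libraries. Their direction was thus given in advance, and their separation between groups was favoured. Shares near those of the targets are therefore a description and no support for the targets. Not every listed gene was separate. All hydrogel libraries lay below all Blank libraries for 4 of 7 genes of collagen fibril organization and 2 of 4 of cartilage condensation. The counts were 14 of 16 for ECM-receptor interaction, 12 of 13 for angiogenesis and 25 of 27 for the PI3K-Akt signaling pathway. Over all 13226 genes kept the share was 12.8%, which is no test of genes chosen for differing. Whether a target is among the listed genes is not known here. The 5 terms share genes, with 45 distinct genes among 67 entries. Among the 7 listed genes of collagen fibril organization, the hydrogel share of Blank ran from 20.2% to 49.0%, with a median of 33.4%, beside 41.1% for Col I. ECM-receptor interaction is the term for matrix ligands and their integrin receptors. Its 16 listed genes ran from 12.9% to 51.2%, with a median of 33.9%, beside 34.1% for SPP1. The 13 listed genes of angiogenesis ran from 15.8% to 51.8%, with a median of 44.9%, beside 17.8% for VWF. The 4 listed genes of cartilage condensation ran from 20.1% to 25.8%, beside 31.7% for SOX9. The 27 listed genes of the PI3K-Akt signaling pathway ran from 0.169% to 51.2%, with a median of 33.4%, beside 50.6% for IGF1.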

How the data were processed

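The relative levels are linear ratios deposited by the authors in 1 of 67 sheets of a workbook, identical in all 6 copies. Per the file headers the sheet names groups and targets only. Blank geometric means were 0.979 to 0.998, so the scaling used arithmetic means. The members and lists were chosen with earlier results of these data known. All 5 targets are named, whatever their values. Differences of means were tested with exact two-sided permutation tests (scipy 1.17.1); intervals used t quantiles.

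RNA-seq counts are whole reads per gene as deposited. Per the labels' protocols, TRIzol extraction and DNase treatment preceded fragmentation, cDNA synthesis and PCR. Per the submitters' processing notes, HISAT2 2.2.1 and featureCounts 2.0.2 are among the tools named. The rabbit build and annotation are not given there or in the other sources read. Counts were divided by library totals, and no test was run on them because no symbol could be paired: 0 entries of the reference table carry an Ensembl identifier. Their shares rest on a mean of at least 1 CPM. The planned lists of genes and markers could not be used for the same reason. Another 496 columns of numbers in the workbook belong to other measurements or to no single sample and stayed out. Figures were drawn with matplotlib 3.10.9.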

Additional observations from a re-analysis of the deposited data

How the results depend on the processing

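Across 10 alternatives for each of the 5 targets, 50 in all, the hydrogel level stayed below Blank. Because the groups of each target do not overlap, this direction was given in advance for every alternative except the Bonferroni bounds. No exact permutation p passed 0.05, which that test cannot reach with 3 values per group. Leaving out 1 value gave differences of 0.779 to 0.868 for VWF, 0.551 to 0.628 for Col I, 0.612 to 0.705 for SPP1, 0.372 to 0.557 for IGF1 and 0.538 to 0.788 for SOX9, where the smallest exact permutation p is 0.2. Log2 ratios of arithmetic or geometric means and differences of medians kept the direction. With the error pooled over targets, the lower bounds of Bonferroni intervals lay above 0 for all 5 targets, the lowest at 0.208 for IGF1. With the error of the target alone and a Šídák adjustment, the lower bound of the interval was -0.105 for IGF1 and -0.0153 for SOX9; with the pooled degrees of freedom it was 0.123 and 0.250. Geometric means, the Šídák intervals, pooled or from the target alone, and all settings for the RNA-seq shares were chosen after seeing the data. The comparisons between targets, the ratios of single values and the choice of enrichment terms were not planned either. The share of RNA-seq genes lower without overlap ran from 10.8% to 20.9% over 9 settings, and the share at or below the ratio of IGF1 from 8.15% to 17.0%. For the share without overlap, the upper end came from leaving out a library, which cannot create an overlap. With all libraries it was 10.8% without a filter, 14.4% at a mean of at least 10 CPM and 15% with median-of-ratios size factors. No paired analysis was possible because the columns of the relative-level table carry no replicate number. The planned comparisons of other groups and of the targets in the RNA-seq counts, with their alternatives, were not run: the table holds 2 groups, and no symbol was paired with a count. With 3 values per group, the number of values limits the precision, and the depth behind the relative levels is unknown.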
